A study of Homo sapiens with 36 samples.

Results

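Binding of endogenous HIF-2α was mapped by Cut&Run using anti-V5 antibody, and the called sites were set against those called by the same antibody in cells without the tag. Sites were the merged regions of the 3 peak lists of HIF-2α knock-in (KIN) cells on chromosomes 1 to 22, X and Y, and a site was kept when at least 2 of the 3 lists called it. A kept site with no peak of any of the 3 wild-type (WT) lists was called KIN-only, and a kept site overlapped by at least 1 WT peak was called shared. This gave 3786 KIN-only and 1348 shared sites among 16717 merged KIN regions, or 22.6% and 8.06% of them. The 18 anti-V5 lists of the whole series merged to 61215 regions.

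All cells were 786-O, an established line of clear cell renal cell carcinoma that lacks a working VHL protein and makes no functional HIF-1α. The KIN line is a single homozygous clone, A31, in which the endogenous HIF-2α loci carry V5 and Halo at the N-terminus. WT cells are the parental line with untagged HIF-2α, so the antibody has no intended target there, and a clone difference between KIN and WT cells cannot be told apart from the tag. In addition, 4 lines that express Halo- and V5-tagged HIF-2a, HIF-1a or the swaps HIF-2a/1a and HIF-1a/2a from an L30 promoter, on top of the endogenous untagged HIF-2α, were used here only to ask whether their lists called the same sites. No cells were treated. Each line had 3 anti-V5 samples, which the labels give as biological replicates, and 3 IgG samples, and each anti-V5 list was called against the IgG sample of its own line and replicate.

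HIF-2α is the oxygen-regulated subunit of a hypoxia-inducible factor. VHL marks it for degradation in normal oxygen, and without VHL it stays stable, pairs with HIF-1β (ARNT) and binds the hypoxia response element (HRE), whose core reads ACGTG or GCGTG. HIF-2α is a main driver of clear cell renal carcinoma, and genes of glucose use, blood vessel growth, oxygen sensing and matrix modification are known targets of the family. Cut&Run tethers a nuclease to the bound antibody and sequences the short fragments that it frees.

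The HRE at some of the tallest sites is shown first, since motifs are the measure on which the 2 classes of sites were compared. Each line gives the strand that reads ACGTG or GCGTG on hg38, from 5′ to 3′. Capitals mark the HRE nearest to the centre of the motifs near the summit and, where present, the letters CAC that begin 8 bases after it. Of the KIN-only sites, those of GPI, LDHA, PDK1, P4HA1, PLOD2 and FGGY lie at promoters. The SLC2A3 locus site lies 34524 bp upstream of the SLC2A3 transcription start site (TSS), and its intron label does not name a gene. The NEDD9 locus site lies in an intergenic region 10872 bp from the NEDD9 TSS.
GPI, chr19:34359426-34359455, plus strand: gaccacccggACGTGctggcccaCACgcac
LDHA, chr11:18394369-18394398, plus strand: ctcccagcgcACGTGgagcagtctgccggt
PDK1, chr2:172556058-172556087, minus strand: tacgtgagggACGTGgcgggcagcaggggc
P4HA1, chr10:73096938-73096967, plus strand: agccctcgctACGTGagctcgatCACacca
PLOD2, chr3:146161370-146161399, plus strand: gcctgcggctACGTGtggaggctCACgcag
FGGY, chr1:59296848-59296877, plus strand: cggcgcggctACGTGcagaatccgtctagc
SLC2A3 locus, chr12:7970803-7970832, plus strand: gcggcgggtaGCGTGccacacggCACgtcc
NEDD9 locus, chr6:11393228-11393257, minus strand: gtgatttcgtACGTGcagattgtCACgttt
Of the 10 tallest shared sites, 8 held an HRE in the lower window and those at PDLIM4 and ECE1 did not. Shared sites with an HRE, chosen to show the motif, are printed below. They lie 1666 bp upstream of the MOB3A TSS, in an intron at CA12 and at the promoter of BHLHE40. The others lie in an intergenic region 126346 bp from the MYEOV TSS and in a lncRNA gene 162333 bp from the COL4A1 TSS.
MOB3A, chr19:2087276-2087305, plus strand: gagtacagttACGTGactcctggCACgttt
CA12, chr15:63372538-63372567, plus strand: tcagcagtgtACGTGcaaagaagctgagtt
BHLHE40, chr3:4979253-4979282, plus strand: cagtggccagACGTGcctggagtCACaggg
MYEOV locus, chr11:69419853-69419882, plus strand: gggcagccgtACGTGtcccaggcagcggga
COL4A1 locus, chr13:110006551-110006580, minus strand: tggcctttgtACGTGacacaatcagagatg

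KIN cells gave 3984, 13193 and 7311 peaks in replicates 1, 2 and 3, and WT cells gave 392, 9508 and 743. WT replicate 2 stood apart from the other WT lists and exceeded 2 of the 3 KIN lists. Replicate 2 was the longest list in KIN, in WT and in each exogenous line, and within replicates 1, 2 and 3 the KIN list was the longer by a log2 difference of 3.35, 0.47 and 3.30. The log2 difference in peak number, KIN minus WT, was 2.37 (two-sided exact permutation p = 0.3, adjusted p = 0.3 over 8 tests), where 3 against 3 lists cannot go below 0.1. The difference was 3.75 without WT replicate 2 (exact permutation p = 0.1) and 1.45 without WT replicate 1 (p = 0.5, exact permutation test). Depth, solved from the deposited fold and p-value at each summit, was 0.378, 0.275 and 0.256 fragments per base in KIN and 0.302, 0.280 and 0.241 in WT, and did not separate them. The lowest called summits held 4 or 5 fragments.

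Next, each list was divided by class of site. KIN-only sites took 55.0%, 27.7% and 49.0% of the peaks of KIN replicates 1, 2 and 3, and shared sites took 19.9%, 10.2% and 18.3%. The remaining 25.1%, 62.1% and 32.7% were called in that list alone among the KIN lists. Of the WT peaks, 90.1%, 76.2% and 32.3% in replicates 1, 2 and 3 overlapped no KIN peak. The shared class rested largely on 1 WT list: WT replicate 2 alone called 985 of the 1348 shared sites (73.1%), replicates 2 and 3 called 291 (21.6%), and all 3 WT lists called 23 (1.71%). Without WT replicate 2 the shared class held 363 sites and the KIN-only class 4771. The KIN lists bore on the counts as well, with 1917 KIN-only and 661 shared sites without KIN replicate 2, and 2003 and 725 without KIN replicate 3.

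**Figure D1:**
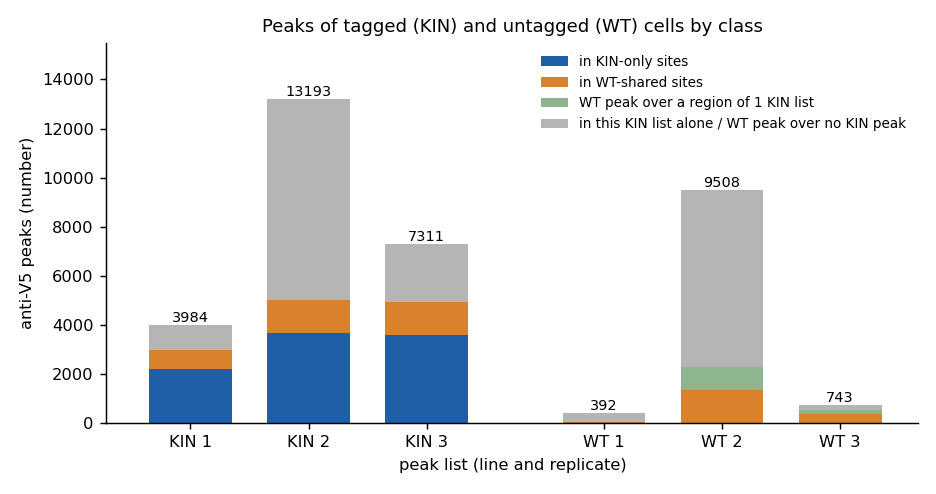
Bars give the number of anti-V5 peaks in each of the 3 KIN and 3 WT lists, with the total above each bar, divided by whether the peak lies in a KIN-only site, in a shared site, or in neither. KIN-only sites hold 27.7% to 55.0% of a KIN list, and WT replicate 2, with 9508 peaks, is the one long WT list.

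Peaks of the 2 classes were of similar height in KIN cells, and both stood above the peaks of 1 list. The fold enrichment is the fragment count at the summit plus 1 over the local background plus 1, as deposited. Its median over KIN-only peaks was 7.55, 9.94 and 8.20 in replicates 1, 2 and 3. Over shared peaks it was 6.91, 9.04 and 7.59, lower in 3 of 3 lists, and over peaks of 1 KIN list it was 5.08, 5.04 and 5.64. In fragments the order of the classes was opposite, with medians of 21, 31 and 22 at KIN-only summits and 28, 40 and 28 at shared summits, and 7, 7 and 10 at peaks of 1 KIN list. Shared sites were also longer, with a median length of 735.5 bp against 590 bp. Requiring calls in 2 lists thus separated taller from lower peaks, and this threshold is part of how the sites were chosen.

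The position of a summit was reproducible between KIN lists. At KIN-only sites the median distance between the summits of replicates 1 and 2, 1 and 3, and 2 and 3 was 34, 34 and 35 bp. At shared sites the KIN and WT summits lay a median of 48, 57 and 54 bp apart for WT replicates 1, 2 and 3. Where both lines called a shared site in the same replicate number, the summit height over the genome mean was compared. The median ratio of KIN over WT was 1.08 over 17 sites in replicate 1, 1.57 over 1290 sites in replicate 2 and 1.30 over 341 sites in replicate 3. KIN was the higher line at 58.8%, 75.0% and 64.8% of these sites. By fold the order was opposite in replicate 1, with a median of 5.83 in KIN and 7.13 in WT, while replicates 2 and 3 had 9.21 against 6.95 and 7.91 against 7.05. WT peaks had to pass the caller to enter this comparison, so the ratios leave out sites where the WT signal was too low to be called.

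To relate the sites to sequence, the HRE and other motifs were counted around the summits on both strands. The motifs were not centred on the deposited summits. The mean position of the HRE in excess over its surroundings was −76.2 ± 2.71 bp from the summit in the KIN lists (SD, n = 3), where the minus sign means lower coordinates. That of AP-1, a motif of JUN and FOS factors common in open enhancers, was −83.5 ± 1.64 bp. The 12 lists of the exogenous lines gave −83.0 ± 3.53 bp for AP-1 (SD, n = 12). The cause was not tested. Counts are therefore given in the window fixed for the summit (50 bp to each side) and in a window of equal width 80 bp lower, which was chosen after seeing these positions. The background of each count is the mean of windows of the same width 1000 bp to each side, and the excess is what remains of a motif's percentage once that background is taken off.

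**Figure D2:**
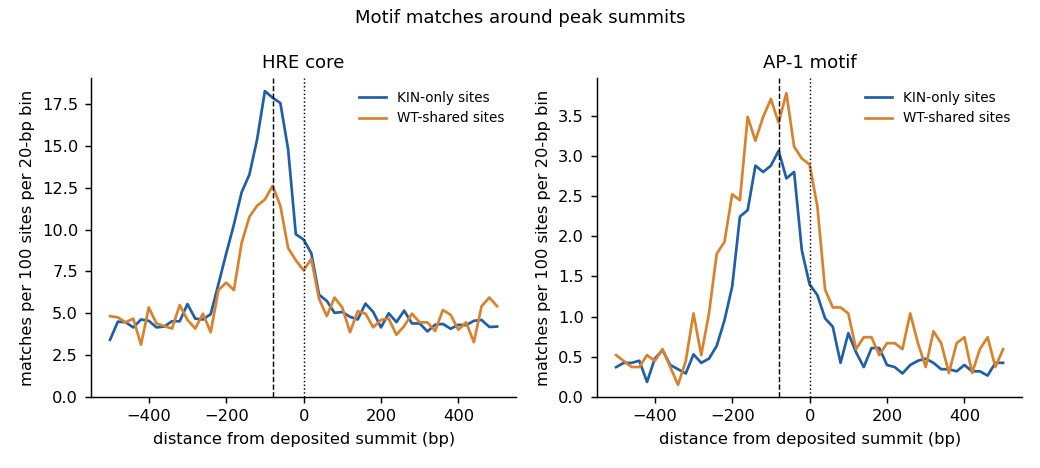
The lines give the number of HRE and of AP-1 matches per 100 sites in 20 bp bins against the distance from the deposited summit in bp, for KIN-only and shared sites. HRE matches of KIN-only sites are most frequent in the bin 100 bp below the summit, with 18.3 per 100 sites against 4.31 at the edges, and the shared sites reach 12.6 against 4.64.

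The HRE excess was higher in every list of tagged cells than in every list of untagged cells. At the deposited summits the excess was 13.3, 8.05 and 12.6 percentage points in KIN replicates 1, 2 and 3 and −3.70, 0.836 and 1.55 in WT. In the window 80 bp lower it was 30.7, 15.7 and 27.1 in KIN and 0.638, 1.61 and 1.14 in WT. The mean difference was 11.7 points at the summits and 23.4 in the lower window (exact permutation p = 0.1 for each, the smallest that 3 against 3 lists allow, adjusted p = 0.2 for the first). TACGTG, the HRE with a preceding T, had an excess of 12.7, 5.73 and 9.73 points in the KIN lists and of 0.383, 0.0368 and 0 in the WT lists, in the lower window. The AP-1 excess there overlapped between the lines, with 9.43, 8.41 and 11.7 points in KIN and 2.17, 6.52 and 13.2 in WT. The low value of KIN replicate 2 went with the 62.1% of its peaks that no other KIN list called.

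Next, the 2 classes of KIN peaks were compared within each list. In the lower window the HRE excess was 42.5, 37.5 and 37.8 points in KIN-only peaks and 26.9, 20.2 and 22.1 in shared peaks of replicates 1, 2 and 3, a mean difference of 16.2 points. At the deposited summits the difference was 5.95 ± 1.24 points (SD, n = 3; higher in 3 of 3 lists, exact permutation p = 0.25, adjusted p = 0.286), and 0.25 is the smallest p that 3 pairs allow. AP-1 went the opposite way, with an excess lower in KIN-only than in shared peaks by 3.39 ± 0.878 points at the summits. Values of −2.65, −4.36 and −3.16 in replicates 1, 2 and 3 make up that difference (exact permutation p = 0.25, adjusted p = 0.286). Without KIN replicate 2 the AP-1 difference was −1.97 points, and at sites of 3 of 3 KIN lists it was −2.19. The classes also differed in promoter share, and AP-1 was less frequent at promoter than at distal sites, as given below. The AP-1 difference was not adjusted for this. Since a site had to be called in at least 2 KIN lists, the 3 lists hold largely the same sites, and a like value over the lists follows in part from that rule.

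**Figure D3:**
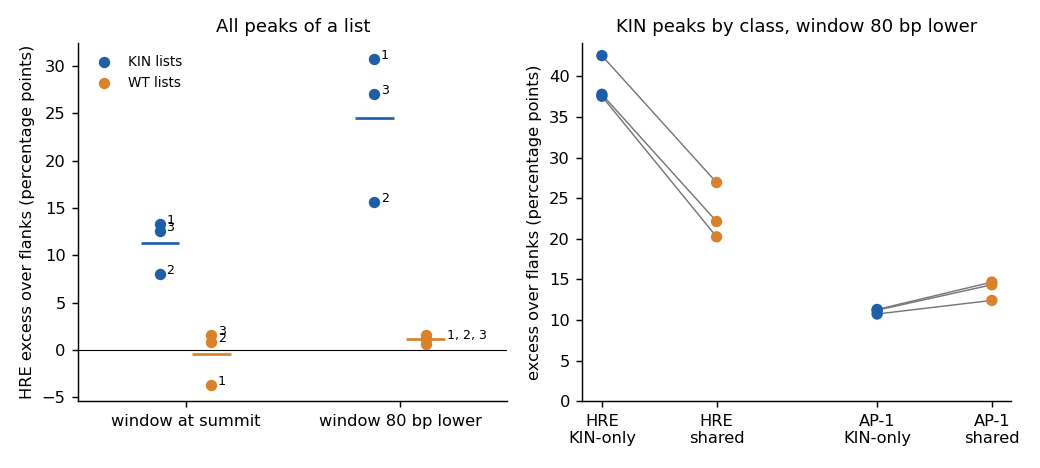
On the left, points give the HRE excess over flanks in percentage points for all peaks of each KIN and WT list at the summit and 80 bp lower, with a bar at the group mean and the replicate number beside each point. On the right, lines join the KIN-only and shared peaks of the same KIN list in the lower window, where the HRE excess is 37.5 to 42.5 against 20.2 to 26.9 points and AP-1 is lower in KIN-only peaks.

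Counted over sites in the lower window, 53.1% of the KIN-only sites held an HRE (95% Wilson interval 51.6 to 54.7%, flanks 14.4%) and 37.5% of the shared sites did (34.9 to 40.1%, flanks 17.3%). Such intervals cover the counting of sites and not the spread between lists. Shared sites called in at least 2 WT lists, 320 in number, held an HRE in 29.1% of cases. TACGTG stood at 16.2% of KIN-only sites, 7.94% of shared sites and 5.31% of sites of at least 2 WT lists, with flanks of 0.938% and 0.927% for the first 2. AP-1 was present at 12.8% of KIN-only sites (11.8 to 13.9%, flanks 1.47%) and 16.3% of shared sites (14.4 to 18.4%, flanks 1.59%). As a reference, windows of the same width at 35116 RefSeq promoters held an HRE in 24.2%, TACGTG in 1.13% and AP-1 in 2.04% of cases.

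Of the KIN-only sites, 1774 (46.9%) held no HRE in the lower window, 1300 (34.3%) held 1 and 712 (18.8%) held at least 2. An HRE and an AP-1 motif stood together at 234 sites (6.18%), and AP-1 without an HRE stood at 250 (6.60%). Neither motif was found at 1524 sites (40.3%). Anywhere within the bounds of the site an HRE was found in 87.6% of KIN-only and 83.1% of shared sites, and these bounds are far wider than the window. The requirement of 3 lists went with more HREs, since 62.3% of KIN-only sites in 3 of 3 lists and 45.4% of those in 2 of 3 held the motif. AP-1 did not follow this order, with 12.6% and 12.9%.

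Taller sites held an HRE more often, given here as a description. KIN-only sites were divided by their highest fold over the 3 lists into 5 bins of equal size. In the tallest bin 71.4% held an HRE, then 61.7%, 53.8%, 44.6% and 34.2%. For TACGTG the same bins gave 33.4%, 18.0%, 14.5%, 10.3% and 4.62%. The promoter share ran the other way, from 25.3% to 36.2%, and AP-1 stood at 14.8% in the tallest and 12.0% in the lowest bin. The tallest bin of the shared sites had 64.8%, and the next bins had 37.0%, 34.4%, 29.0% and 21.9%. In the lowest bin of shared sites AP-1 stood at 19.0% and TACGTG at 1.86%.

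**Figure D4:**
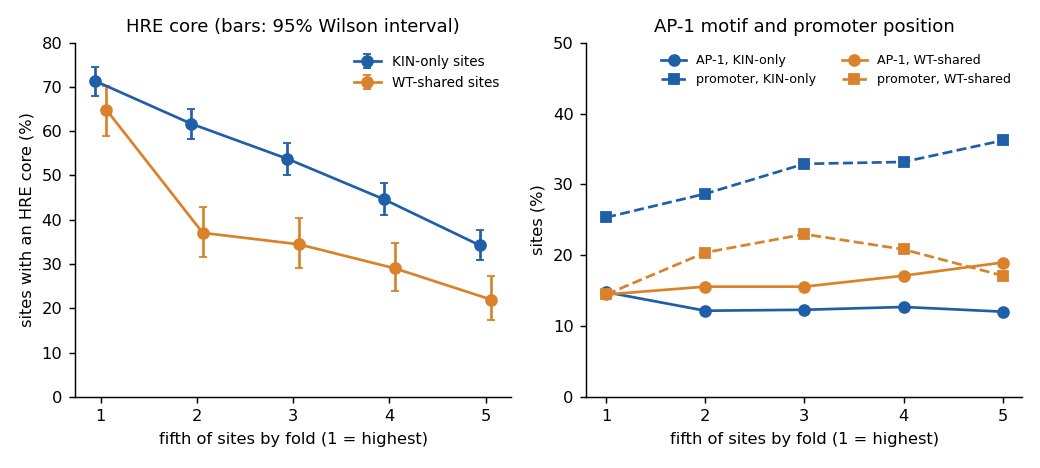
Points give percents for 5 equal bins of the KIN-only and shared sites from the tallest to the lowest fold. On the left are sites with an HRE in the window 80 bp below the summit, with bars for 95% Wilson intervals. On the right are sites with an AP-1 motif in that window and sites at promoters, without intervals. The HRE share is 71.4% in the tallest and 34.2% in the lowest bin of KIN-only sites, and 64.8% and 21.9% in shared sites.

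Bases beside the core were read next. Over 1455 ACGTG matches in KIN-only sites, a T came before the core in 40.3% of cases against 16.9% of 420 matches in the flanks, and a C followed it in 44.5% against 20.2%. An A before the core was rarer at sites than in flanks, with 14.8% against 35.0%. Over 317 matches in shared sites a G came before the core in 36.6% and a T in 32.8% of cases, and a C followed it in 44.8%. The flanks of the shared sites had a T before the core in 12.0% and a C after it in 22.9% of 192 matches. The letters CAC, as in the ancillary sequence known from the HREs of EPO and other HIF targets, were then searched at 25 distances after the core, a search chosen after the sequences above had been seen. Beginning 8 bases after ACGTG they were found in 9.42% of KIN-only matches (8.02 to 11.0%), while the other 24 distances gave 1.17% to 3.37% and the flanks gave 2.86% at this distance. In the tallest bin of sites this share was 16.1% (13.0 to 19.7%), with at most 4.63% at other distances. Shared sites gave 7.26% (4.88 to 10.7%), with at most 4.42% at other distances. Among the sites printed above, those of GPI, P4HA1, PLOD2, NEDD9, MOB3A and BHLHE40 show this arrangement. The SLC2A3 site has CAC at the same distance after GCGTG, which was not counted here.

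KIN-only sites lay at promoters more often than shared sites. A promoter site has its summit within 1 kb of a GENCODE TSS of a protein-coding gene. Of the KIN-only sites 1183 (31.2%, 29.8 to 32.7%) were promoter sites, against 258 (19.1%, 17.1 to 21.3%) of the shared sites and 12.8% of those called in at least 2 WT lists. Within each KIN list, the promoter share of peaks was 31.1 ± 0.0406% in KIN-only and 18.6 ± 0.263% in shared peaks (SD, n = 3). KIN-only peaks thus exceeded shared peaks by 12.5 ± 0.250 points (SD, n = 3; exact permutation p = 0.25 and 0.286 after adjustment). The small spread follows from the rule, since the lists share most of these sites. Shared sites were instead more frequent 10 to 100 kb from a TSS, with 45.2% against 37.3%. Introns held 47.1% of KIN-only and 48.7% of shared summits, intergenic DNA 28.1% and 31.4%, lncRNA genes 12.5% and 14.2%, UTRs 9.54% and 4.90%, and coding sequence 2.80% and 0.890%.

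Promoter and distal sites differed in their motifs. In the lower window an HRE was found at 61.5% of KIN-only promoter sites and 49.4% of distal ones, and at 46.5% and 35.3% of shared sites. No background was taken off these shares, and the HRE was more frequent in RefSeq promoters than in the flanks of either class. AP-1 was more frequent at distal sites, with 16.8% of distal and 3.89% of promoter sites in the KIN-only class, and 17.9% and 9.69% in the shared class. GGGCGG, the box of SP and KLF factors, was found at 40.2% of KIN-only and 35.7% of shared promoter sites, against 31.4% of RefSeq promoters. CACGTG, the E-box, which also contains the HRE core, stood at 6.18% of KIN-only sites (flanks 1.27%) and 3.56% of shared sites (flanks 2.19%), against 3.45% of RefSeq promoters. GGAATG of TEAD stood at 9.11% of KIN-only and 11.9% of shared sites (RefSeq promoters 4.68%), and TGTGGTT of RUNX at 4.28% and 5.34% (RefSeq promoters 1.47%). Most sites of both classes lie outside promoters, so RefSeq promoters are not a matched background for TEAD and RUNX. The mean GC content was 55.2% in KIN-only and 57.0% in shared sites.

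By chromosome, KIN-only sites were densest on chromosomes 17, 19 and 22, with 2.95, 2.71 and 2.16 per Mb, and sparsest on Y, X and 13, with 0.0349, 0.429 and 0.603. The shared part of the kept sites was greatest on chromosomes 22 (39.2%) and 19 (35.1%).

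To see which genes carry the sites, lists of known hypoxia genes, of kidney factors and of contrast genes were read against them. Of 19663 protein-coding genes, 10.8% had a KIN-only site within 10 kb of a TSS and 6.56% within 1 kb, and 2.96% and 1.4% had a shared site at these distances. Of the 73 genes in the 5 hypoxia lists, 49 had a KIN-only site within 10 kb and 39 within 1 kb, 14 and 8 had a shared site, and 22 had neither within 10 kb. Their median distance to the nearest KIN-only site was 487 bp, against 188880 bp over all genes. These lists hold genes known to respond to HIF and also the genes of oxygen sensing and the HIF subunits. They were drawn up with results of these data known, so the counts describe the genes and test nothing.

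Glucose uptake and glycolysis had the fullest coverage, with a KIN-only site within 10 kb of 19 of 21 genes and within 1 kb of 17, and a median distance to the nearest site of 106 bp. ALDOC had neither class, and HK1, the hexokinase of most tissues, had a shared site alone. GPI, which turns glucose 6-phosphate into fructose 6-phosphate, had fold values of 40.6, 78.0 and 74.3 in KIN replicates 1, 2 and 3 at a site 19 bp from a TSS. LDHA, which makes lactate, had 44.3, 85.4 and 27.5. PDK1, a kinase that inhibits pyruvate dehydrogenase, had 39.5, 81.2 and 39.3. Replicate 2 was the highest at each of these 3 genes. TPI1 (43.5, 54.2 and 45.9) and PGAM1 (39.9, 49.9 and 49.0), enzymes of the middle and lower pathway, varied less between lists. GAPDH had values of 21.7, 65.5 and 46.8, and PGK1, the kinase that yields the first ATP of the pathway, had 16.2, 41.3 and 22.3. At the low end, the site at the SLC2A3 promoter had 3.12, 5.53 and 11.4, while a site 34524 bp upstream of the gene's TSS reached 51.5, 168 and 54.2.

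Angiogenic and growth factor genes had a KIN-only site within 10 kb in 8 of 16 cases and within 1 kb in 5. VEGFA, the main growth factor of blood vessels, had fold values of 23.8, 89.3 and 27.7 at a site 385 bp from a TSS. ANGPTL4, a secreted inhibitor of lipoprotein lipase, had 24.0, 53.8 and 40.0 at 1052 bp. Its distance puts ANGPTL4 outside the promoter class. CXCR4, EDN1, EGFR, EPO, FLT1, IGFBP3, KDR and LOX had neither class within 10 kb. A site called in no WT list near TGFA, a ligand of the EGF receptor, was among the tallest of all with 46.5, 100.2 and 51.3, and it lay 43049 bp from the TSS.

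Genes of pH, mitophagy and lipid storage had a KIN-only site within 10 kb in 10 of 15 cases and within 1 kb in 8. HILPDA, a lipid droplet protein, had 12.6, 24.0 and 59.9, BNIP3, a mitophagy receptor, had 8.30, 38.8 and 42.8, and ANKRD37 had 8.34, 28.3 and 34.0. In these 3 genes replicate 1 was the lowest. CA9, CPT1A and VLDLR were among the genes with neither class. The oxygen-dependent dioxygenases of collagen and chromatin had a KIN-only site within 10 kb in 9 of 10 cases and within 1 kb in 7. PLOD2, a collagen lysyl hydroxylase, had 91.3, 102 and 32.4, and P4HA1, a collagen prolyl hydroxylase, had 66.1, 84.4 and 47.7. The histone demethylases KDM4B (24.4, 114 and 44.1) and KDM3A (39.3, 33.7 and 20.4) followed, and KDM5B had neither class.

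Of the oxygen sensors and HIF subunits, 3 of 11 genes (27.3%, against 10.8% of all genes) had a KIN-only site within 10 kb and 2 within 1 kb. They were the prolyl hydroxylase genes EGLN1 and EGLN3, whose products mark HIF-α for VHL, and CITED2, a competitor of HIF-α for its coactivator. The taller EGLN1 site, 160 bp from a TSS, had 11.9, 33.3 and 24.0. The site nearest to an EGLN3 TSS, 144 bp away, was called with a fold of 4.80 and 4.46 in replicates 2 and 3 and not in replicate 1. The subunit genes EPAS1, HIF1A, HIF3A, ARNT and ARNT2, and also VHL, HIF1AN and EGLN2, had neither class within 10 kb.

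**Figure D5:**
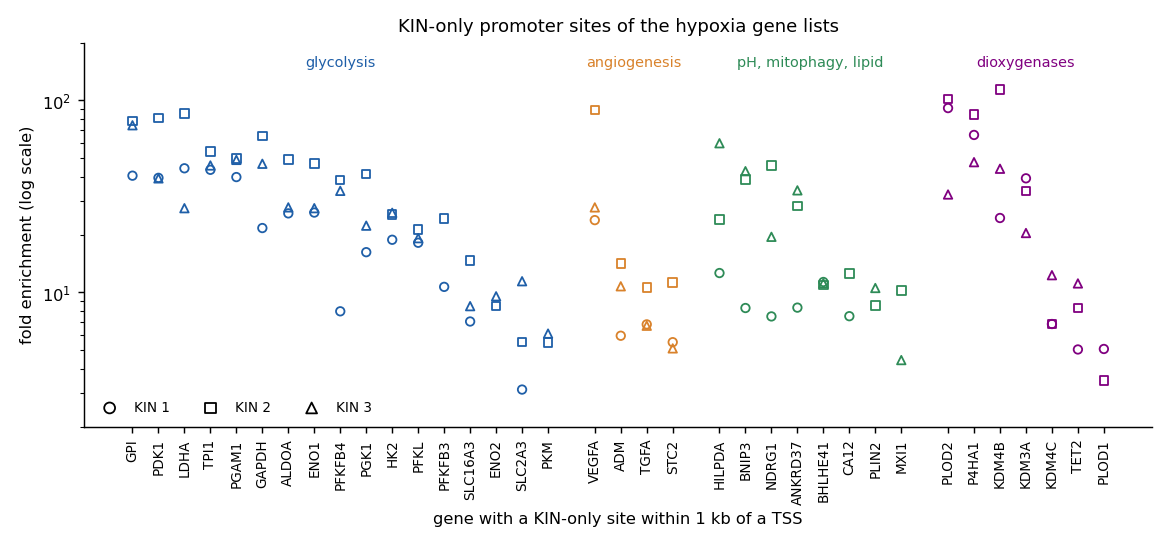
Points give the fold enrichment, on a log scale, of the KIN-only site within 1 kb of a TSS of genes of 4 hypoxia lists in KIN replicates 1, 2 and 3, grouped by gene list (for genes with more than 1 such site, the tallest). It shows 36 genes, with 4 of the 5 angiogenic genes that have such a site. Glycolysis and dioxygenase genes such as GPI, LDHA and PLOD2 reach folds above those of most angiogenic genes, and a missing symbol is a list that did not call the site.

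Among kidney factors, which mark the tissue of origin, PAX8 and PAX2 had shared sites. The PAX8 site had a fold of 6.57, 9.72 and 5.96 in the KIN lists and 3.11 in WT replicate 2, and the PAX2 site had 25.8, 18.6 and 16.5 in KIN and 6.94 in WT replicate 2. WT1 had a KIN-only site (25.7, 32.2 and 18.6 at 3855 bp), and EMX2, HNF4A and LHX1 had neither. Of 10 genes of other lineages, among them ALB, CD3E and INS, none had a site of either class within 10 kb, and with 10.8% of all genes having a KIN-only site, a list of this size is too short to set it apart. Ribosomal protein genes, which are highly expressed in every cell, had a KIN-only site in 1 of 10 cases (10.0%), at RPL3, which is near the share of all genes. The AP-1 subunit genes had 5 of 8, with 8.36, 9.22 and 13.9 at JUN, and 3 had a shared site. A peak list holds no expression values, so these genes describe where signal was called and not the identity of the cells.

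The tallest KIN-only sites, ranked by their mean rank over the 3 KIN lists, lay mostly away from promoters. GPI was the only promoter site among the first 15. The site near ZNF395 had a fold of 77.2, 232 and 110.0 in replicates 1, 2 and 3, and that in a lncRNA gene 115571 bp from SLC45A1 had 128, 205 and 59.3. NEDD9, a scaffold protein of cell adhesion, had 86.8, 131 and 66.4 at the site printed above. The nearest genes of the others were CFAP144, HOXB9, MRPS18A, C1QL1, BASP1, LMF1, PFKP, SEMA4B and ENSG00000170846, at distances from 4229 bp (LMF1) to 86509 bp (CFAP144). PFKP is a phosphofructokinase, and its site, 19018 bp from the TSS, had 83.6, 124 and 38.2. Among promoter sites with an HRE within 50 bp of the deposited summit, those of ZNHIT1, ZBTB1, SCD, FGGY, PPP1R3C, SPIDR and NUP58 stood beside GPI, KDM4B and LDHA by mean rank. P4HA1, PLOD2 and PDK1 hold their HRE in the lower window only and so were not ranked there. SCD, a fatty acid desaturase, had 26.9, 83.6 and 36.4, and PPP1R3C, a regulator of glycogen synthesis, had 24.3, 64.3 and 44.5.

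Shared sites included strong sites in KIN cells with a low WT peak. DEPP1 had 69.4, 147 and 136 in KIN and 4.32 in WT replicate 2, and an HK2 site, 55108 bp upstream, had 51.9, 148 and 50.9 in KIN and 4.45 in WT replicate 2. ADM, a vasodilator peptide, had 54.5, 165 and 47.0 in KIN against 5.91 in WT replicate 3, CA12, a carbonic anhydrase, had 35.0, 74.9 and 41.4 against 10.7 in WT replicate 2, and BHLHE40, a circadian repressor, had 23.0, 33.1 and 24.3 against 5.71 in WT replicate 2. At these genes each KIN value lay above the WT value. The sites were picked as strong in KIN cells, so this order follows in part from the choice. Over all shared sites called by both lines in a replicate, KIN was higher at 58.8% to 75.0%. DEPP1 and HK2 belong to the 10 tallest shared sites, and ADM, CA12 and BHLHE40 do not. Others of these 10, nearest to NDRG1, COL4A1, MOB3A, TRIB3, PDLIM4, CCN4 and ECE1, had WT replicate 2 folds of 3.75 (CCN4) to 11.8 (ECE1). The NDRG1 site was called in WT replicate 3 as well, with 5.23. The site at the MYEOV locus was the exception among the tallest 10 in that its WT peak was tall too, with 48.1 in WT replicate 2 against 111, 184 and 64.0 in KIN. Several genes known as HIF targets had sites of both classes. CITED2 had a shared site 889 bp from a TSS (19.1, 24.3 and 14.6 in KIN, 4.29 in WT replicate 2) and a lower KIN-only site at 4585 bp. DDIT4 had a shared site at 55 bp (12.6, 34.7 and 16.1 in KIN, 3.92 in WT replicate 2) and a lower KIN-only site at 3173 bp.

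Calls in the 12 lists of the exogenous lines were compared last. These lists did not enter the choice of sites, but they come from the same parental cells and antibody. A KIN-only site was called in 84.2 ± 11.0% and a shared site in 85.4 ± 11.5% of cases per list (SD, n = 12). The difference of −1.22 ± 1.35 points was negative in 9 of 12 lists (two-sided exact permutation p = 0.0107, adjusted p = 0.0286). It did not hold up under other settings. It was −0.711 points without KIN replicate 1 (exact permutation p = 0.0645) and 1.12 points without WT replicate 2 (exact permutation p = 0.139). When the KIN and exogenous lists were cut to the length of the shortest KIN list, it was 3.22 (exact permutation p = 0.000977). The WT lists were left uncut in that setting. All 12 lists called 1717 KIN-only (45.4%) and 643 shared sites (47.7%), and 27 KIN-only (0.713%) and 4 shared sites were called in none. Regions of 1 KIN list without a WT peak were called in 23.3% of cases.

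Within the KIN-only class, motif and position went with these calls. Sites with an HRE at the summit were called more often than sites without, in 87.9% against 82.5% of cases, a difference of 5.44 ± 1.90 points that was positive in 12 of 12 lists. Promoter sites were called more often than distal sites, in 87.6% against 82.7% of cases, a difference of 4.91 ± 2.66 points and positive in 12 of 12 lists. The size of both rested on the KIN lists that define the sites. When KIN replicate 2 was left out the HRE difference was 1.87 points, when KIN replicate 3 was left out it was 3.57, and it was 1.57 at sites of 3 of 3 KIN lists, and the promoter difference was 3.13, 2.72 and 2.47 in the same order. With all lists both had an exact permutation p of 0.000488, the smallest possible, and an adjusted p of 0.00195. The 12 lists score the same KIN-only sites and come 3 to a line, so they are not independent. With the means of the 4 lines as units both had an exact permutation p of 0.125, the smallest possible there. In the lower window the HRE difference was 9.99 points, with 88.9% against 78.9%. It was larger at distal sites, where 88.6% with and 76.9% without an HRE were called, than at promoter sites, with 89.4% and 84.6%, and this contrast was not tested. By line, the promoter difference was 1.97 points in HIF-2a, 5.24 in HIF-2a/1a, 6.28 in HIF-1a and 6.15 in HIF-1a/2a. Sites of 3 of 3 KIN lists were called in 93.8% and those of 2 of 3 in 76.1% of cases.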

How the data were processed

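Cut&Run peak lists of 18 anti-V5 samples were used, 3 for each of 6 lines of 786-O cells. Per the study's methods and the labels, the authors aligned reads to hg38 with Bowtie2 2.3.4.1 (local alignment, fragment size 10 to 700 bp). They called peaks with MACS2 (q of 0.01, maximum gap 400 bp, duplicates kept) for each replicate against IgG of the same line and replicate, without pooling, and removed blacklisted regions with BEDTools 2.28.0. The submitters' processing notes also name SAMtools 1.8 and deepTools 3.5.1. The lists deposited by the authors give the fold enrichment (a ratio), the −log10 p and the −log10 q at each summit. Absence from a list means no call, not absence of binding. IgG samples enter only through the calls.

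Analyses used Python 3.11.15 with NumPy 2.4.6, pandas 2.3.3, SciPy 1.17.1 and matplotlib 3.10.9. Peaks overlapping by at least 1 bp were merged. The fragments at a summit were solved from the fold and −log10 p of each peak, and the depth from peaks with a −log10 p below 100. The solutions for peaks below 100 met the deposited −log10 p within 0.002, and a wider tolerance was allowed at the tallest peaks. No read totals were used. A site took the TSS nearest to it among 78567 of GENCODE release 44 (19663 gene symbols), and promoter windows were taken from RefSeq. Motifs were searched on both strands by their letters: HRE as ACGTG or GCGTG, AP-1 as TGACTCA or TGAGTCA, and the letters given for other factors, in the reference genome of the same build. Matches of different motifs may overlap, as TACGTG and CACGTG contain ACGTG. KIN and WT lists were compared with a two-sided exact permutation test, classes within lists with an exact permutation (sign flip) test, and p-values were adjusted by Benjamini-Hochberg over 8 tests. Scripts were tested on simulated data. Members and lists were chosen with earlier results of these data known. The text names the 15 KIN-only, 10 shared and 10 KIN-only promoter HRE sites of best mean rank by fold over the 3 KIN lists, with genes of fixed lists. Some genes of these lists are counted but not reported here by name. Alternatives were another −log10 q, equal length of the KIN and exogenous lists (WT lists uncut), overlap, window, promoter width, class rules, lines as units, the replicate block, leaving out each list and, added after seeing the data, the lower motif window.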

Additional observations from a re-analysis of the deposited data

Results flagged for a closer look

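Peaks called in 1 KIN list alone and in no WT list belong to neither class of sites, and they also carried HREs above the level of the WT lists. In the window 80 bp below the summit their HRE excess over flanks was 8.19 points over 965 peaks of KIN replicate 1, 4.96 points over 7499 peaks of replicate 2 and 14.5 points over 2143 peaks of replicate 3. The WT lists had 0.638, 1.61 and 1.14 points. The share of these peaks with an HRE was 20.3%, 17.2% and 27.4%. At the deposited summits the excess was 1.87, 3.53 and 7.49 points. No test was made of these values.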

How the results depend on the processing

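The number of sites moved with the rule. KIN lists cut to the length of the shortest KIN list, with the WT lists uncut, gave 2324 KIN-only and 889 shared sites. Calls in 3 of 3 KIN lists gave 1735 and 661, and a shared class of at least 2 WT lists gave 320 shared sites. Leaving out 1 list gave 1917 to 4771 KIN-only and 363 to 1348 shared sites. The difference between KIN-only and shared sites in exogenous calls turned from −1.22 to 0.389 points at a −log10 q of at least 5. It was 3.22 with KIN and exogenous lists of equal length and 0.494 with at least 2 WT lists, and it ran from −2.53 to 1.12 without 1 list. With 4 lines as units the 3 exogenous differences kept their values of −1.22, 5.44 and 4.91 points at exact permutation p-values of 0.25, 0.125 and 0.125. With the replicate number as a block, the log2 difference in peak number was 2.37 and that in HRE excess 11.7 points (exact permutation p = 0.25 each, the smallest possible). Library names in the labels run on within a replicate number, and whether a number marks a shared day is not stated. The HRE excess of KIN over WT ranged from 10.1 to 23.4 points, and that of KIN-only over shared peaks from 4.47 to 16.2. With TACGTG counted in place of the HRE core these were 2.74 and 2.51 points. The AP-1 difference ranged from −5.07 to −1.97 and the promoter difference from 11.7 to 18.3. The exogenous difference by HRE ranged from 1.57 to 9.99 and that by promoter from 2.47 to 5.63. Each kept its direction in the settings run. Causes were not tested. The lowest called summits held 4 or 5 fragments, and signal below that was not called.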
